A study of Mus musculus with 23 samples.

Results

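The RING1 catalytic core and the partners that mark variant Polycomb repressive complexes 1 (PRC1) were followed in the RNA-seq data of mouse Kdm2b fl/fl ESCs. The 10 genes were Ring1, Rnf2, Rybp, Yaf2, Skp1a, Usp7, L3mbtl2, E2f6, Mga and Max, chosen by name as members of these complexes. All 10 were found among the 23369 gene names of the deposited tables, and all 10 passed the filter on low values. PolyA+ RNA was sequenced in 3 samples whose labels read untreated and 3 whose labels read treated (72 hr of tamoxifen), and the design asks whether deletion of the DNA-binding domain of KDM2B alters gene expression. The other 17 samples of the series are ChIP-seq and input samples and were not analysed here.

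Both groups were MS12 Kdm2b fl/fl ESCs at passages p10-p20, in which loxP sites flank the exon coding for most of the ZF-CxxC domain. According to the study's methods, these cells also carry an ERT2Cre transgene at Rosa26, so that the controls hold the same floxed alleles and the same Cre as the treated cells. The treated cells received 4-hydroxy tamoxifen, at 800 nM by the sample labels and at 800 µM by the text of the series, and none of the RNA-seq samples is a tamoxifen-treated line without Cre. Cells were grown on inactivated mouse embryonic fibroblasts with serum and LIF and left overnight without feeders before use. Grouping follows the labels of the samples. File names point the other way for all 6 samples, and if they were right every difference given here would have the reverse sign at the same size. Kdm2b itself stood at 27.0, 21.5 and 27.7 FPKM in untreated replicates 1, 2 and 3 and at 19.9, 21.9 and 25.04 FPKM in tamoxifen replicates 1, 2 and 3. These groups overlapped, and a value for the whole gene does not resolve the deleted exon, so that it does not check the labels.

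PRC1 is an E3 ubiquitin ligase that places ubiquitin on histone H2A, and its catalytic subunit is either RING1A, encoded by Ring1, or RING1B, encoded by Rnf2. The RING1 protein pairs with a PCGF protein, and which PCGF protein is present sets which other subunits can join. Variant PRC1 complexes hold RYBP or YAF2 in place of a CBX protein, and KDM2B brings the PCGF1 form of the variant complex to CpG islands. SKP1 and USP7 belong to that PCGF1 form, whereas L3MBTL2, E2F6, MGA and MAX belong to the PCGF6 form, which is known in ESCs for silencing germline genes.

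Because KDM2B binds non-methylated CpG dinucleotides, the promoters of the catalytic pair are shown with each CG in capitals, and that of Max with its E-box in capitals. The E-box CACGTG is the motif that MAX dimers bind. The sequences are from RefSeq on GRCm38.p6 and run from 250 bases before to 50 bases after the start of the gene, a window of 300 bases. They lie at chr17:34024631-34024930 on the minus strand for Ring1, at chr1:151500942-151501241 on the minus strand for Rnf2 and at chr12:76962199-76962498 on the minus strand for Max.
Ring1: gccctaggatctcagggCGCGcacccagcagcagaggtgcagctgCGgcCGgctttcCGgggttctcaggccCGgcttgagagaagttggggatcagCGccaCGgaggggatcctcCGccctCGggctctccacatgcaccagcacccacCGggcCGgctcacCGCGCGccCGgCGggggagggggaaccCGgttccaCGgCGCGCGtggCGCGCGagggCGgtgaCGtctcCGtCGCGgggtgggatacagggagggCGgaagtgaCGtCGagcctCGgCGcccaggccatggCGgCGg
Rnf2: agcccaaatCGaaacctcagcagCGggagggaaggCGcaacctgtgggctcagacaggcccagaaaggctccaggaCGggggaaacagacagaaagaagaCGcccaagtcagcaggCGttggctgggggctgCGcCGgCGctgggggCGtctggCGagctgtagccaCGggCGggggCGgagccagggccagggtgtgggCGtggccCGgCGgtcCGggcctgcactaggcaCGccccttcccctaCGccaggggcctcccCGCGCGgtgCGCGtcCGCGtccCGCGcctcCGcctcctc
Max: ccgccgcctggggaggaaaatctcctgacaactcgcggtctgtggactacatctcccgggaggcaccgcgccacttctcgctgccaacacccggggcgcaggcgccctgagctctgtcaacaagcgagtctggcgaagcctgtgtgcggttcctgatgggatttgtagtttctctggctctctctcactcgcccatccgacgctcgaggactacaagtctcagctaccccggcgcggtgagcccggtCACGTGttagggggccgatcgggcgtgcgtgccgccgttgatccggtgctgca

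A promoter was found for 8 of the 10 genes (all but Rybp and Yaf2), that of Skp1a under the name Skp1. The Ring1 window held 37 CpG dinucleotides and the Rnf2 window 30, against a median of 7 and quartiles of 3 and 20 over all 32851 promoters of the same length. The count was 63 for Usp7, more than in 99.97% of promoters, 34 for Skp1, 30 for Max, 29 for E2f6 and 24 for Mga. L3mbtl2, with 17, was the 1 gene of the 8 that lay below the upper quartile. CACGTG, which reads the same on both strands, was present in the Max window and in none of the other 7, and 7.15% of all promoters hold it. TCCCGC, a core E2F motif searched on both strands, was present in the windows of Rnf2, Skp1 and E2f6, and 20.0% of all promoters hold it. These matches describe the letters in the window and do not show binding.

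The values are FPKM, fragments scaled by transcript length and library size, as the authors' tables give them, summed by gene name. Differences are on the log2(FPKM + 0.1) scale, tamoxifen minus untreated, and were tested with limma over the 12997 genes that reached 0.5 FPKM in 3 or more samples. Deviations from the group means were shared by same-numbered replicates, with correlations of 0.506 to 0.605 within a number, and so every difference was also fitted with a block for replicate number. Between numbers the correlations were -0.379 to -0.105. These are no separate evidence, since the deviations of the 3 samples of a group sum to 0. The FPKM summed to between 549379 and 1045707 per sample, and loci shorter than 300 bp held 23.9% to 67.8% of that sum. Relative depth, read from the steps that 1 fragment makes in low rows, was 0.654 to 0.954 of that of untreated replicate 1. Fibroblast markers were present, with 9 of 10 passing the filter and the other, Lum, at 0 to 0.202 FPKM, and the sum over the list ran from 175.8 to 427.5 FPKM in untreated and from 258.5 to 306.8 FPKM in tamoxifen samples. The sum over 10 ESC markers ran from 2962 to 4104 FPKM and from 3256 to 5664 FPKM. Of the 9 tested fibroblast markers, 6 passed a limma F test for replicate number, against 62.8% of all genes. These were Col1a1, Col1a2, Col3a1, Thy1, Dcn and S100a4, each lowest in both replicate 1 samples, while Acta2, Tagln and Postn did not pass. The part of feeder RNA in the differences between replicate numbers was not tested. In bulk RNA, fewer cells of a type and less RNA per cell cannot be told apart.

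None of the 10 genes passed the test between untreated and tamoxifen samples. Without the block, 0 of the 10 passed an adjusted p of 0.05 and 0.0308% of all tested genes did. With the block, 0 of the 10 passed and 10.4% of all genes did, 4.33% being higher and 6.06% lower. At an unadjusted p under 0.05 the counts were 0 of the 10 without the block, where 623 genes reached it, and 1 of the 10 (Skp1a) with the block, where 3873 genes (29.8%) reached it. The groups overlapped for all 10 genes, and 8.49% of all genes had groups that did not. The median log2 difference was -0.02 over the 10 genes and -0.02 over all genes, while the median absolute difference was 0.06 over the 10 and 0.20 over all. All genes include low ones near the filter, and these medians were not matched for level or tested against each other. Replicate numbers all showed the same direction for 3 of the 10 genes (Ring1, Skp1a and Mga), against 53.0% of all genes.

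**Figure D1:**
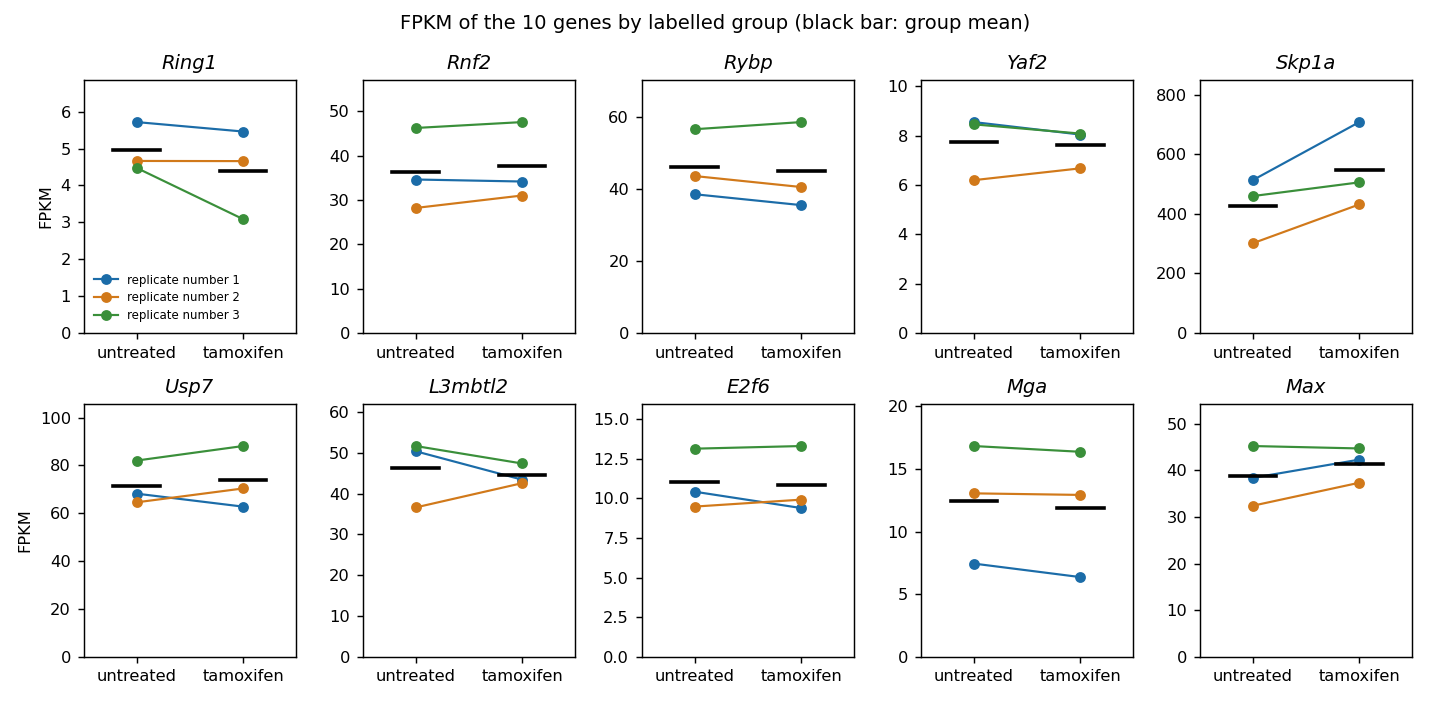
FPKM (linear axis from 0) of each gene in the 3 untreated and 3 tamoxifen samples, with lines joining samples of the same replicate number and black bars at the group means. The untreated and tamoxifen points overlap in all 10 panels, and the Mga points are set by replicate number, with both replicate 1 samples under 7.5 FPKM and both replicate 3 samples above 16 FPKM.

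The catalytic pair was uneven in level. Ring1 (chr17:34157737-34161625, minus strand, mm9, as are all gene positions below) stood at 5.72, 4.66 and 4.47 FPKM in untreated replicates 1, 2 and 3. In tamoxifen replicates 1, 2 and 3 it stood at 5.46, 4.66 and 3.09 FPKM. The lowest value was that of tamoxifen replicate 3, while the other tamoxifen samples lay within the untreated range. The log2 difference was -0.20 with an SE of 0.28 without the block and 0.14 with it (limma adjusted p = 0.394 with the block). Within replicate numbers 1, 2 and 3 it was -0.07, -0.001 and -0.52, so that the mean difference rests on replicate number 3. Ring1 was the least precise of the 10, with the authors' confidence interval reaching 14.1% to 24.1% to each side of its FPKM.

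Rnf2 (chr1:153316536-153347953, minus strand), which codes for RING1B, stood at 34.6, 28.2 and 46.3 FPKM in untreated replicates 1, 2 and 3. Its values were 34.2, 31.0 and 47.6 FPKM in tamoxifen replicates 1, 2 and 3. Each tamoxifen value lay close to the untreated value of the same replicate number. The log2 difference was 0.05, with a 95% interval of -0.16 to 0.27 with the block (limma adjusted p = 0.731).

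Rnf2 exceeded Ring1 in all 6 samples, by 7.90-fold on the geometric mean, with a range of 6.05 to 15.4-fold. The FPKM are per length, so that levels of different genes can be set side by side. Differences between replicate numbers still moved with transcript length, as given below. Ratios of genes of unlike length may carry that trend, which was not tested. The log2 ratio of Ring1 to Rnf2 was -2.60, -2.60 and -3.37 in untreated replicates 1, 2 and 3 and -2.65, -2.74 and -3.95 in tamoxifen replicates 1, 2 and 3. It was lowest in both samples of replicate number 3 and lower with tamoxifen in 3 of 3 replicate numbers. The mean was -2.86 ± 0.45 (SD, n = 3) untreated and -3.11 ± 0.73 (SD, n = 3) with tamoxifen. The difference of -0.25 had an exact permutation p of 0.5 (two-sided, BH-adjusted p = 0.9 over 2 ratios), and the smallest p that 3 against 3 samples can give is 0.1.

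RYBP and YAF2 bind RING1 proteins at the surface that CBX proteins use in canonical PRC1, and RYBP is known to stimulate the ligase. Rybp (chr6:100178559-100237352, minus strand) stood at 38.6, 43.6 and 56.6 FPKM in untreated replicates 1, 2 and 3 and at 35.5, 40.6 and 58.6 FPKM in tamoxifen replicates 1, 2 and 3. Yaf2 (chr15:93114264-93167366, minus strand) stood at 8.55, 6.19 and 8.46 FPKM untreated and at 8.04, 6.67 and 8.08 FPKM with tamoxifen, in the same order. Both genes kept their groups interleaved, with Rybp highest in both replicate 3 samples and Yaf2 lowest in both replicate 2 samples. The log2 difference was -0.06 for Rybp (95% interval with the block -0.27 to 0.16) and -0.01 for Yaf2 (-0.27 to 0.24).

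Rybp was above Yaf2 in all 6 samples, by 5.88-fold on the geometric mean and between 4.42 and 7.25-fold. The log2 ratio of Rybp to Yaf2 had a mean of 2.58 ± 0.35 (SD, n = 3) untreated and 2.54 ± 0.36 (SD, n = 3) with tamoxifen. The difference was -0.04 (exact permutation p = 0.9, two-sided, BH-adjusted p = 0.9), and the ratio was lower with tamoxifen in 2 of 3 replicate numbers. In replicate number 1 the log2 ratio was 2.17 untreated and 2.14 with tamoxifen, and in the other samples it was 2.60 to 2.86.

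**Figure D2:**
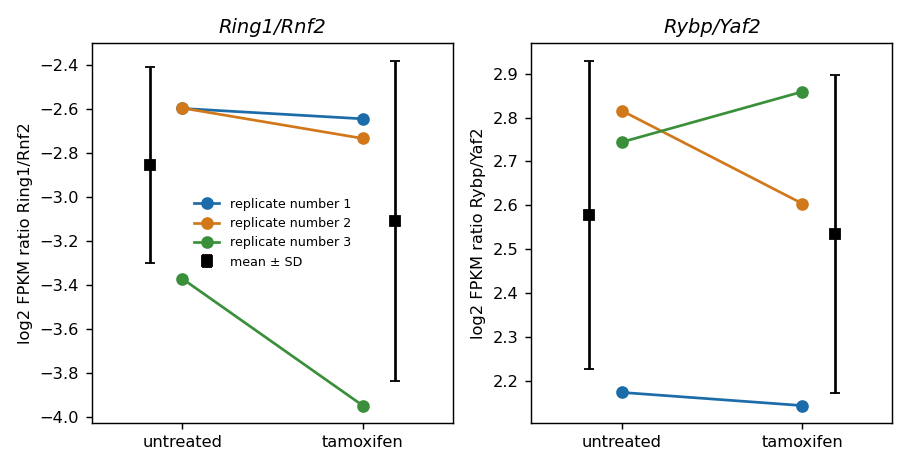
Log2 FPKM ratio of Ring1 to Rnf2 (left) and of Rybp to Yaf2 (right) in each sample by labelled group, coloured by replicate number, with black squares and bars for the mean ± SD of 3 samples. The Ring1 to Rnf2 ratio falls to -3.95 in tamoxifen replicate 3, and the groups overlap in both panels.

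Of the partners in the PCGF1 form, SKP1 is also an adaptor of SCF ubiquitin ligases, and USP7 is a deubiquitinase. Skp1a (chr11:52045497-52060360, plus strand) stood at 514, 302 and 460 FPKM in untreated replicates 1, 2 and 3. In tamoxifen replicates 1, 2 and 3 it stood at 709, 432 and 506 FPKM. Tamoxifen values were higher within each replicate number, by 0.46, 0.52 and 0.14 on the log2 scale, but the groups overlapped because tamoxifen replicate 2 lay below untreated replicates 1 and 3. The log2 difference was 0.37 (SE 0.34 without the block, 0.11 with it), and the 95% interval with the block was 0.11 to 0.63. The limma adjusted p was 0.074 with the block and 0.999 without it, so that the difference passed the threshold in neither. The level is less certain than its size implies, since the deposited FPKM of Skp1a lies above the upper bound of its own interval in 6 of 6 samples.

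Usp7 (chr16:8688815-8738435, minus strand) stood at 68.2, 64.6 and 82.1 FPKM in untreated replicates 1, 2 and 3. Its values were 62.8, 70.4 and 88.1 FPKM in tamoxifen replicates 1, 2 and 3. Both replicate 3 samples were highest, and the tamoxifen range enclosed the untreated range. The log2 difference was 0.04 (95% interval with the block -0.19 to 0.26, limma adjusted p = 0.828). The deposited FPKM of Usp7 lay inside its own interval in 1 of 6 samples.

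The PCGF6 form holds the MGA and MAX heterodimer, which binds E-boxes, together with the E2F family repressor E2F6 and the MBT-repeat protein L3MBTL2. Mga (chr2:119722964-119795317, plus strand) stood at 7.45, 13.1 and 16.8 FPKM in untreated replicates 1, 2 and 3 and at 6.37, 12.9 and 16.4 FPKM in tamoxifen replicates 1, 2 and 3. The samples fell into pairs by replicate number, and within each pair the tamoxifen value was slightly lower. The log2 difference was -0.09 (SE 0.41 without the block, 0.10 with it, limma adjusted p = 0.583 with it).

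Max (chr12:78038256-78063235, minus strand), the dimer partner also shared by MYC and MNT, stood at 38.4, 32.4 and 45.2 FPKM untreated and at 42.3, 37.3 and 44.7 FPKM with tamoxifen, in replicates 1, 2 and 3. E2f6 (chr12:16817771-16833558, plus strand) stood at 10.4, 9.48 and 13.1 FPKM untreated and at 9.39, 9.92 and 13.3 FPKM with tamoxifen. L3mbtl2 (chr15:81494366-81518735, plus strand) stood at 50.4, 36.6 and 51.7 FPKM untreated and at 43.4, 42.6 and 47.4 FPKM with tamoxifen. For these 3 genes the values of 1 group lay inside the range of the other. The log2 differences were 0.11 for Max (95% interval with the block -0.11 to 0.33), -0.02 for E2f6 (-0.27 to 0.22) and -0.04 for L3mbtl2 (-0.30 to 0.22). The L3mbtl2 locus overlaps the row of Chadl, which was listed at 0 in all 6 samples, and the other 9 loci overlap no other row.

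With the block, the 95% intervals of the 9 genes other than Skp1a lay between 0.691 and 1.25-fold. In that fit, changes beyond those bounds are outside the intervals of all 9, but a change smaller than them is not shown to be absent. Without the block the log2 intervals were wider, at -1.03 to 0.84 for Mga and -0.83 to 0.44 for Ring1, so that the bounds hold for the fit with the block alone. The median SE of the 10 genes was 0.25 without the block and 0.10 with it, against 0.29 and 0.12 over all genes.

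**Figure D3:**
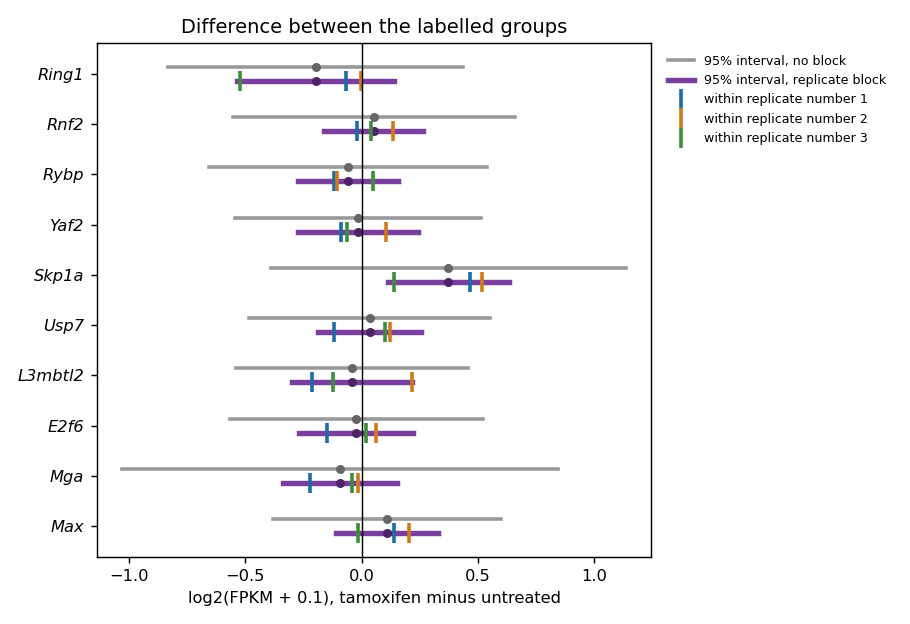
Difference in log2(FPKM + 0.1), tamoxifen minus untreated, for each gene, with dots at the estimate, grey bars for the 95% interval without the replicate block, purple bars for the interval with it and ticks for the difference within each replicate number. The purple interval of Skp1a (0.11 to 0.63) is the 1 that does not cross 0.

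Levels spanned 104-fold from the highest, Skp1a, to the lowest, Ring1. In descending order of mean FPKM they ran Skp1a, Usp7, Rybp, L3mbtl2, Max, Rnf2, Mga, E2f6, Yaf2 and Ring1. The ranges over samples overlapped between the neighbours Rybp and L3mbtl2, L3mbtl2 and Max, Max and Rnf2, and Mga and E2f6, and not between the others. Within samples, L3mbtl2 was above Max in 6 of 6 (mean log2 ratio 0.18, SD 0.12), whereas Max was above Rnf2 in 4, Mga above E2f6 in 4 and Rybp above L3mbtl2 in 3 of 6, with mean log2 ratios smaller than their SD. Among the genes with an FPKM above 0 in a sample, Skp1a lay above 99.2% to 99.6% and Ring1 above 43.2% to 53.5%.

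Values differed between replicate numbers. The range over replicate numbers exceeded the group difference for all 10, as it did for 89.0% of all genes. These measures are unlike, since a range over 3 means of fewer samples tends to exceed a difference of group means even where nothing differs. The comparison therefore does not rank replicate number against group. A limma F test for replicate number passed an adjusted p of 0.05 for 6 of the 10 genes, against 62.8% of all genes, a share near the background. These were Mga (adjusted p = 0.0018), Rnf2 (0.0056), Rybp (0.0062), Skp1a (0.0081), E2f6 (0.0302) and Usp7 (0.0412). Replicate number 3 held the highest mean of 7 of the 10 genes, against 32.7% of all genes. Mga was 2.40-fold apart between its lowest and highest replicate number, a range larger than that of 91.7% of genes. Ring1 went the other way, with log2 differences to replicate number 1 of -0.26 in number 2 and -0.57 in number 3 (limma F adjusted p = 0.0564).

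**Figure D4:**
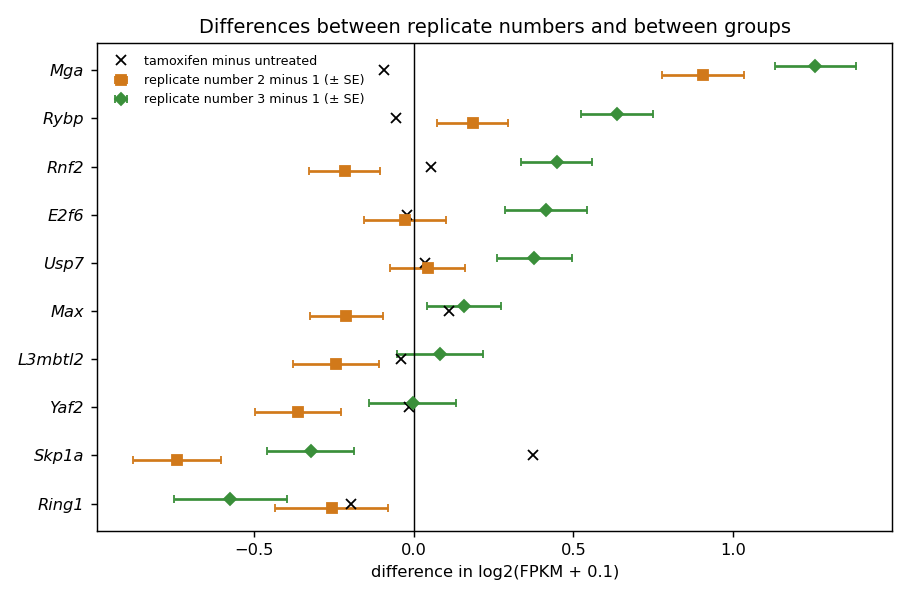
Difference in log2(FPKM + 0.1) of replicate numbers 2 and 3 from number 1 (squares and diamonds, with SE bars) and between tamoxifen and untreated (crosses) for each gene. Mga reaches 1.26 in replicate number 3 while its group difference is -0.09.

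Transcript length moved with the replicate difference, and its part in the result was tested only by removing the trend. For genes with a longest spliced transcript under 1000 bp, the median log2 difference of replicates 2 and 3 from replicate 1 was -0.55, and for the 196 genes of 10000 bp or more it was 0.60. The group difference also moved with length, from a median of 0.17 in the shortest bin to -0.22 in the longest. Mga, with a longest spliced transcript of 13931 bp, lay at 1.08, above 95.1% of all genes and above 84.2% of genes of 10000 bp or more. Skp1a, of 1754 bp, lay at -0.53 and Ring1, of 2552 bp, at -0.42. After removal of the length trend, an alternative chosen after seeing the data, Mga differed by 0.24 and 0.54 in numbers 2 and 3 (limma F adjusted p = 0.0162), its group difference became 0.15, and 0 of the 10 genes passed the test between the groups. The F test for replicate number then passed for 8 of the 10, against 6 before, with L3mbtl2 (0.0250) and Max (0.0189) added. Of the 12250 genes with a known length, 7290 passed it. Under the other alternatives run for the F test the count among the 10 was 4 to 7, and the count over all genes moved too. Without the eBayes trend 4 of the 10 passed, and 7174 of the 12997 genes. With a pseudocount of 1 it was 7 of the 10 and 8452 genes, and with quantile normalization 7 and 7575. Under TPM scaling without short loci it was 7 of the 10 and 7501 of 12952 genes.

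**Figure D5:**
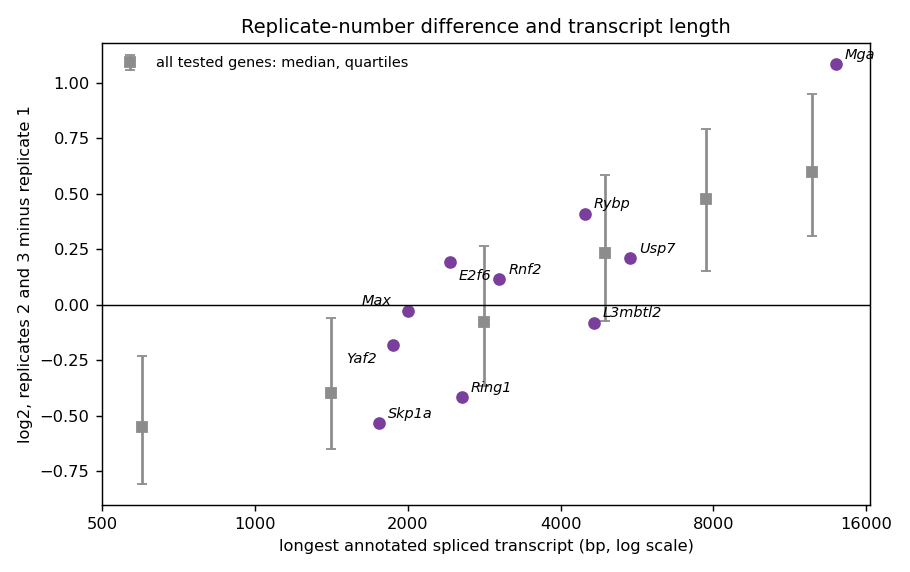
Log2 difference of the mean of replicates 2 and 3 from replicate 1 against longest spliced transcript length (log axis), with grey squares and bars for the median and quartiles of all tested genes in 6 length bins and purple points for the 10 genes. The bin medians climb from -0.55 to 0.60, and Mga lies above the upper quartile of its bin.

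The genes most like Ring1 over the 6 samples were Lysmd4 (Pearson's r = 0.996), Kansl3 (0.995) and Ppp3cc (0.99), and 127 genes (0.977%) had an r above 0.9. Those most like Rnf2 were Tlk2 (0.998), Srp54b (0.996) and Srp54c (0.996), with 403 genes (3.1%) above 0.9. Srp54b and Srp54c are near-identical copies whose reads can be split between them, and their values are uncertain. The 6 points share their replicate numbers, which is a description and not a test.

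Other subunits and partners were described from 11 lists holding 90 different genes, of which 87 were tested. With the block, 4 were higher and 4 lower (9.2%, against 10.4% of all genes), and without it 0 passed. Medians given for a list are of the log2 difference and stand against -0.02 over all genes. Among the 6 PCGF subunits, which define the PRC1 forms, 0 passed (median 0.01), and the largest differences were those of Bmi1 (-0.50, limma adjusted p = 0.0925 with the block) and Pcgf3 (-0.45, adjusted p = 0.0957). Among the 4 other partners in the PCGF1 form (median -0.38) 1 was lower. Bcor, a corepressor that binds PCGF1, stood at 51.3, 60.0 and 64.5 FPKM in untreated replicates 1, 2 and 3 and at 5.82, 11.6 and 13.3 FPKM in tamoxifen replicates 1, 2 and 3. All 3 tamoxifen values lay below all untreated values. Its log2 difference was -2.58 (SE 0.17 with the block, limma adjusted p = 0.0015 with it and 0.0665 without), and it was lower in 3 of 3 replicate numbers and passed with the block whichever replicate number was left out.

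Of the 7 genes of the PCGF3 and PCGF5 forms (median 0.18) 0 passed, the largest differences being those of Auts2 (0.63, limma adjusted p = 0.0541 with the block) and Fbrs (-0.28, 0.1266). Of the 7 other genes of the PCGF6 form (median 0.19) 0 passed, and Cbx3, a heterochromatin protein, had a difference of 0.33 (adjusted p = 0.061) and the deacetylase Hdac2 one of 0.29 (0.0786). Of 11 PRC2 genes (median 0.16), which encode the complex that methylates lysine 27 of histone H3, Phf19 was higher, from 4.90 to 10.3 FPKM (1.08, adjusted p = 0.0105), and Phf1 lower, from 5.47 to 3.88 FPKM (-0.48, adjusted p = 0.0482, past the threshold in 3 of 5 scalings).

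Around MAX and E2F6, Myc was the 1 of 9 tested MAX network genes (median -0.18) that passed. It stood at 11.4, 16.1 and 29.6 FPKM in untreated and at 5.62, 9.04 and 17.2 FPKM in tamoxifen replicates 1, 2 and 3, lower in 3 of 3 replicate numbers while the groups overlapped. Its log2 difference was -0.87 (limma adjusted p = 0.0049 with the block, 0.999 without). Among 9 E2F and DP genes (median -0.09) 0 passed, with the largest differences in E2f8 (-0.27) and E2f1 (0.25). Of 9 SCF genes around SKP1 (median -0.01), Btrc, an F-box protein, was higher, from 4.89 to 7.12 FPKM (0.54, adjusted p = 0.0288 with the block). Of 7 tested H2A deubiquitinases (median 0.01) 0 passed, and the largest differences were -0.12 for Mysm1 and -0.10 for Bap1.

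Of 12 germline genes that the PCGF6 form is known to silence (median 0.13), 2 were higher and 0 lower with the block. Dazl, an RNA-binding protein of germ cells, stood at 2.29, 1.76 and 2.68 FPKM in untreated and at 5.16, 3.16 and 5.04 FPKM in tamoxifen replicates 1, 2 and 3. Smc1b, a meiotic cohesin subunit, stood at 0.971, 0.614 and 0.589 FPKM in untreated and at 3.58, 1.25 and 1.23 FPKM in tamoxifen replicates 1, 2 and 3. For both genes all tamoxifen values lay above all untreated values. The log2 differences were 0.95 for Dazl (limma adjusted p = 0.0105 with the block, 0.669 without) and 1.22 for Smc1b (0.0208 and 0.845).

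These calls depended on the replicate numbers in the fit. Without replicate number 2, Bcor passed with the block and the other genes named above as higher or lower did not, the limma adjusted p being 0.0623 for Myc, 0.0801 for Phf19, 0.0845 for Dazl, 0.1129 for Smc1b, 0.198 for Btrc and 0.2655 for Phf1. Without replicate number 3, Btrc (0.0793) and Phf1 (0.1604) did not pass, and without replicate number 1 all 7 of these genes passed.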

How the data were processed

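Expression was measured by RNA-seq in 3 untreated and 3 tamoxifen-treated samples of mouse Kdm2b fl/fl ESCs, described as biological triplicates in the study's methods. Directional polyA+ libraries were sequenced as paired 51 bp reads. The authors aligned them to mm9 with TopHat2 0.5 and obtained values with Cuffdiff 2.1.1 on refGene models. The deposited values are FPKM with the authors' confidence bounds, and read counts were not used here. FPKM depends on the transcript model and on the other RNA of a library, and short loci held a varying part of the sum. The 10 genes and all gene lists were chosen with earlier results of these data known. Rows were summed by gene name, and 6 names with a failed quantification were left out. Genes with at least 0.5 FPKM in at least 3 of 6 samples were tested on log2(FPKM + 0.1), a scale that understates changes of low genes, with limma 3.58.1 in R 4.3.3 (eBayes with trend, Benjamini-Hochberg adjustment, threshold 0.05).

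No further normalization was applied. Replicate numbers come from the labels. Same-numbered samples correlated in their deviations from the group means (0.544, 0.605 and 0.506 for numbers 1, 2 and 3), and so a second fit held the replicate number as a blocking term. Within a list, genes past the threshold in either fit were named, or the 2 with the largest absolute log2 difference where none passed. The result of 1 gene that passed is not reported here, though counts over the lists include it. Ratios of paralogs were tested by exact permutation with scipy 1.17.1 in Python 3.11.15. Alternatives were other pseudocounts, filters and scalings, leaving out each replicate and, added after seeing the data, removal of the length trend, using the longest spliced transcript of GENCODE on NCBIM37, known for 94.3% of tested genes. Fits were tested on simulated data. Promoters were read from RefSeq on GRCm38.p6.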

Additional observations from a re-analysis of the deposited data

How the results depend on the processing

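Of the 10 genes, 0 were higher and 0 lower under every alternative run, with or without the replicate block, and the smallest limma adjusted p over the alternatives was 0.0576, for Skp1a. Over all genes, 3 were higher and 1 lower without the block. Requiring 1 FPKM in all 6 samples gave 0 and 0, and a pseudocount of 1 gave 0 lower. The replicate block gave 563 higher and 787 lower, 558 and 586 with quantile normalization, 461 and 629 with median-of-ratios size factors, 421 and 1190 under TPM scaling without loci shorter than 300 bp, and 720 and 772 with the length trend removed. Leaving out 1 sample gave 2 to 5 higher and 0 to 7 lower. With the block, leaving out replicate number 1 gave 744 and 1011, number 2 gave 36 and 43, and number 3 gave 359 and 478, and the cause was not tested.

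Directions of small differences turned with the scaling. Under TPM scaling the log2 difference became 0.044 for Rybp, 0.085 for Yaf2, 0.061 for L3mbtl2, 0.078 for E2f6 and 0.009 for Mga. With short loci left out it became -0.035 for Rnf2 and -0.052 for Usp7, and under quantile normalization 0.052 for Yaf2, -0.028 for Usp7 and 0.031 for E2f6, with and without the block. With the length trend removed it became 0.038 for Rybp, 0.063 for L3mbtl2 and 0.154 for Mga. The median over all genes was 0.081 under TPM scaling and -0.105 with short loci left out, and that of the 10 genes was 0.082 and -0.106. Skp1a was higher under every alternative run, but the size moved. Its log2 difference was 0.475 under TPM scaling, 0.316 with the length trend removed and 0.224 under quantile normalization. The limma adjusted p under quantile normalization was 0.227 with the block.

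With the block, Yaf2 turned to 0.021 without replicate number 1 and 0.009 without number 3, L3mbtl2 to 0.046 and 0.001, E2f6 to 0.041 without number 1 and Usp7 to -0.008 without number 2. Leaving out 1 sample without the block, the difference ran from -0.367 to 0.034 for Ring1, -0.129 to 0.241 for Rnf2, -0.266 to 0.098 for Rybp, -0.165 to 0.075 for Yaf2, 0.144 to 0.53 for Skp1a, -0.1 to 0.145 for Usp7, -0.2 to 0.048 for L3mbtl2, -0.175 to 0.111 for E2f6, -0.42 to 0.301 for Mga and -0.012 to 0.228 for Max. The Ring1 to Rnf2 ratio difference ran from -0.512 to 0.165, turning without tamoxifen replicate 3, and that of Rybp to Yaf2 from -0.245 to 0.154, turning without untreated replicate 2 (0.077), untreated replicate 3 (0.041) or tamoxifen replicate 1. The log2 ratio of group means has no test and gave no counts. The authors' confidence intervals were widest for Ring1 and Yaf2, and the part of depth was not tested.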

Other observations

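Some markers of other lineages passed the test between the groups with the replicate block, and 0 passed without it. Over all genes 6.06% were lower and 4.33% higher with the block. Of 5 tested primitive endoderm markers 3 were lower and 0 higher. Gata6 went from 1.13 to 0.328 FPKM on average (log2 difference -1.43, limma adjusted p = 0.0174). It passed the filter of 0.5 FPKM through its untreated samples alone. Its tamoxifen replicates 1, 2 and 3 stood at 0.311, 0.239 and 0.433 FPKM. A lower call was therefore favoured by the filter, and this call is a description only. Gata4 went from 1.92 to 0.998 FPKM (-0.85, 0.0359) and Lama1 from 5.17 to 3.20 FPKM (-0.66, 0.0237), while Pdgfra (-0.44) and Dab2 (0.23) did not pass. Of 4 tested neural markers 3 were lower and 1 higher, Pax6 going from 5.65 to 1.70 FPKM (-1.73, 0.0103), Sox1 from 3.79 to 1.92 FPKM (-0.97, 0.0153), Nes from 15.4 to 10.4 FPKM (-0.55, 0.0275) and Neurog1 from 2.24 to 3.65 FPKM (0.62, 0.0376). Of 2 tested mesendoderm markers Eomes was lower (-0.70, 0.0377) and T (0.39) did not pass. Of 10 ESC markers and 9 tested fibroblast markers 0 passed.

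Without replicate number 2 all 8 of these calls were lost, with limma adjusted p from 0.0861 for Pax6 to 0.1973 for Lama1. Their log2 differences kept their direction in that fit, from -1.81 for Pax6 to 0.66 for Neurog1. Eomes (0.1309) and Neurog1 (0.1701) were also lost without number 3, and Gata4 (0.0669) without number 1. Quantile normalization ended the calls of Eomes (0.0668) and Gata4 (0.0531), removal of the length trend those of Lama1 (0.0638) and Neurog1 (0.0511), and TPM scaling without short loci that of Neurog1 (0.0591).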
